A study of Mus musculus with 6 samples.

Results

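Translation initiation and elongation factors were followed in embryonic mouse bone with and without the transcription factor gene Stat3. The members were every gene of the deposited expression table whose symbol begins with Eif followed by 1 to 6, or with Eef followed by 1 or 2, leaving out the sex-linked pair Eif2s3x and Eif2s3y. This gave 56 of 23930 genes, of which 55 had a mean of at least 1 RPM (reads scaled per 1000000 of the library) and entered the test, beside 12846 genes in all. The symbol Eif2c5, an older name in the Argonaute family and not an initiation factor, was the exception at 0 to 5 reads per library. The low Eif5a level in knockout bone was known when the genes were chosen, so it is described here and was not tested. The counts of other factors past the threshold are likewise a description, read against the share of all genes that passed. Eif1 and Eif4a1 were not analysed here.

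RNA came from the humerus shaft of E16.5 embryos. The 3 control samples have the genotype Stat3C/+, 1 conditional Stat3 allele with no Cre, although the labels also call them wild type. The 3 knockout samples are Prrx1Cre; Stat3C/C, in which Cre is expressed from a Prrx1 driver active in limb bud mesenchyme, which targets the deletion to cells of that origin in the shaft. All 6 samples therefore share at least 1 conditional allele, and the driver is present in the knockout group only. Its stated purpose was a list of genes that differ between the genotypes in long bone.

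In translation initiation, eIF2 brings the initiator tRNA to the small ribosomal subunit, eIF3 holds the complex together, and the eIF4 group brings in the mRNA by its cap. The eEF1 factors then deliver aminoacyl-tRNA, eEF2 moves the ribosome along, and eIF5A helps it through sequences where peptide bonds form slowly and at the stop codon. Bone-forming cells make large amounts of secreted collagen, a protein rich in proline, and runs of proline are a known place where eIF5A acts.

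Mouse eIF5A is encoded by Eif5a and by a second gene, Eif5a2. Both proteins carry hypusine, a modified lysine at residue 50 that is found in no other known protein, and the sequences around that codon are shown because these genes had different values in the knockout. They are coding strand reads of GENCODE M21 transcripts on GRCm38, with the lysine codon in capitals.
Eif5a: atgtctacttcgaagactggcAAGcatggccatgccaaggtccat
Eif5a2: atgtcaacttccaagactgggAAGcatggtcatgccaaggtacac
Over these 45 bases the genes differed at 6 positions, and none of the differences changed an amino acid. Over the whole coding sequence the identity was 73.2% of bases and 83.0% of the 153 aligned residues. The sources used here do not say which part of a gene each amplicon reads.

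Library depth ranged from 9126493 to 13376550 reads, and 1 read was worth 0.0748 to 0.110 RPM. The tested member with the fewest reads had 56 in its lowest library. Stat3 itself was read at 208 ± 5.82 RPM in control bone and 193 ± 20.1 RPM in knockout bone (SD, n = 3 each), and its log2 fold change of -0.11 ± 0.08 (SE) missed the threshold (limma, adjusted p = 0.380). It is not known whether this amplicon falls inside the deleted exons, so its level is no check of the labels. Summed osteoblast markers were at 46781 to 50669 RPM in the controls and 40918 to 45405 RPM in the knockouts. The samples also held muscle RNA, with skeletal muscle markers summing to 28661 to 32252 and 26244 to 28391 RPM. In bulk tissue, fewer cells of a type and less RNA per cell cannot be told apart. Each value is of 1 amplicon per gene. Amplification differs between amplicons, so levels of different genes are not molar amounts.

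Eif5a was the factor with the greatest difference between the groups. Its amplicon (gene on chromosome 11 from 69916714 to 69921958, minus strand, GRCm38) gave 427, 471 and 414 RPM in control bone and 216, 217 and 199.9 RPM in knockout bone. The lowest control lay well above the highest knockout library, and the groups did not overlap. Means were 437 ± 29.7 and 211 ± 9.34 RPM (SD, n = 3 each), so the knockout held 48.2% of the control level. The log2 fold change was -1.05 ± 0.08 (SE), on the log2(RPM + 1) scale used throughout. These values rest on 1956 to 6297 reads per library. Among all 12846 tested genes, 32 had a log2 fold change at or below that of Eif5a, itself included, and among the 1816 genes with a mean of at least 100 RPM the number was 2. Eif5a was chosen with this fall known, so these ranks only describe it and are no test. Across the 16 alternative analyses its fold change stayed between -1.09 and -0.99.

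Eif5a2 did not show this difference. Its amplicon was at 11.4, 13.0 and 12.5 RPM in control bone and 12.1, 12.4 and 18.0 RPM in knockout bone, with the high value in knockout replicate 3 and overlapping groups. It did not pass the test, at a log2 fold change of 0.17 ± 0.15 (SE), or -0.0048 without knockout replicate 3. The ratio of the Eif5a to the Eif5a2 amplicon was 35.6 ± 2.15 in control bone and 15.5 ± 3.77 in knockout bone (SD, n = 3 each). Eif6, which keeps the large ribosomal subunit from joining too early, was at 50.8, 44.6 and 46.6 RPM in control bone and at 61.1, 54.2 and 35.4 RPM in knockout bone. Its knockout libraries lay on both sides of the controls, and the log2 fold change was 0.05 ± 0.14 (SE).

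**Figure D1:**
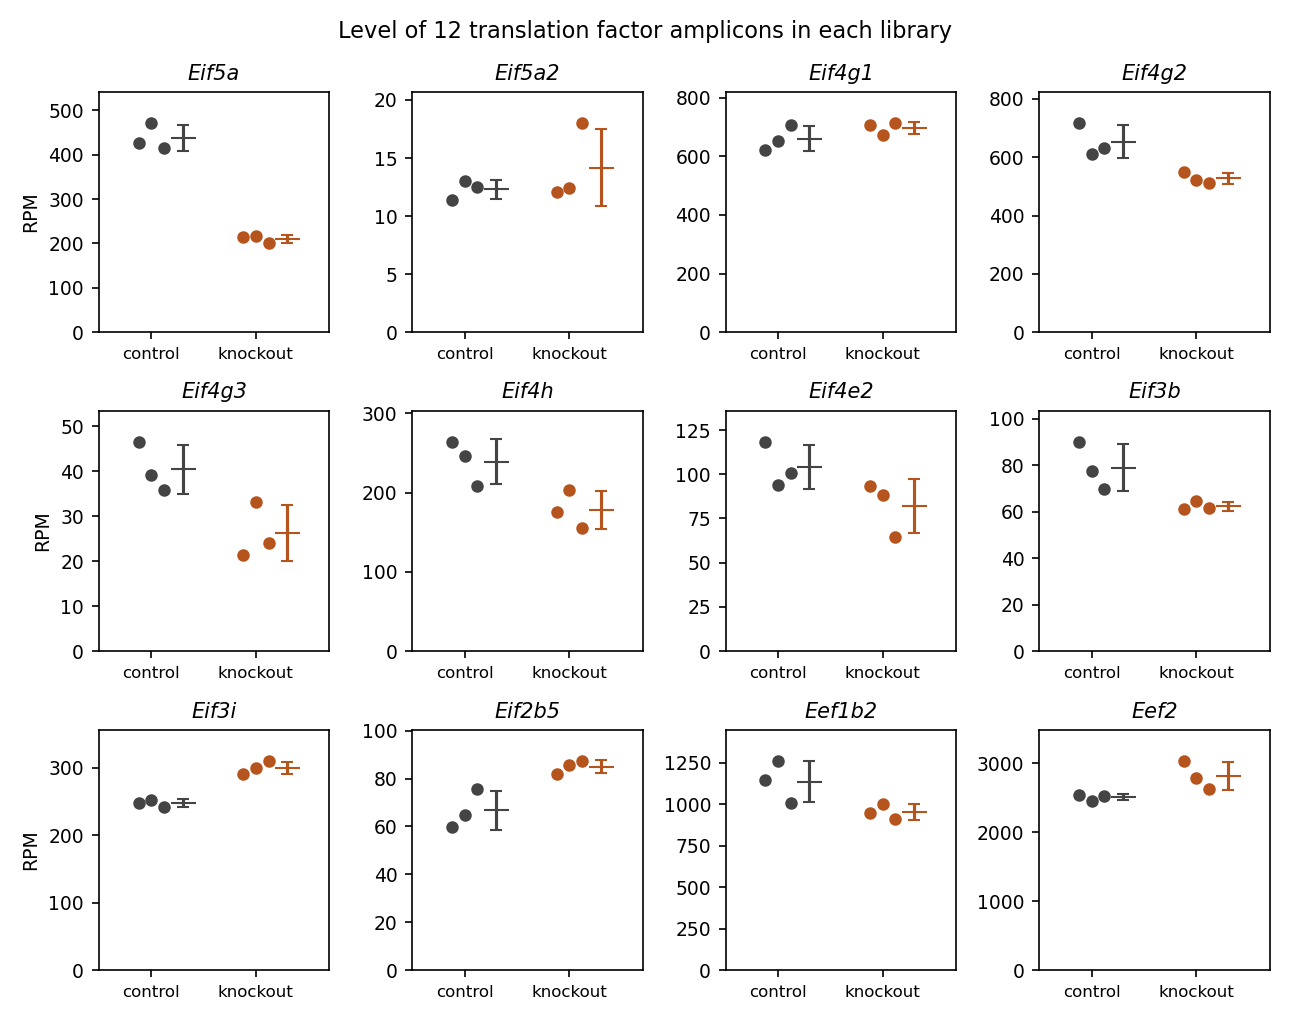
RPM (vertical axis, from 0) of 12 factor amplicons in the 3 control and 3 knockout libraries. Each point is 1 library, and the bar to its right gives the mean and SD of the group. Eif5a is at 414 to 471 RPM in control bone and 199.9 to 217 RPM in knockout bone, whereas Eif5a2 and Eif4g1 overlap between the groups.

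Among the 54 other factors tested, 2 were higher and 9 lower in the knockout past the threshold (limma, adjusted p under 0.05 over all genes), and 43 did not pass. Over all genes tested, 5.71% were called higher and 11% lower, 16.7% in either direction. The median log2 fold change was -0.06 over the 55 tested factors and -0.06 over all genes, with 21 factors above 0 and 34 below it. Among the 54 factors other than Eif5a, group values did not overlap for 8 that were higher and 12 that were lower in the knockout, beside 11.9% and 21.9% of all genes. Nothing is read from these counts, because the contrast was known when the factors were chosen. Relative to the median of the other factors, Eif5a was at -0.99 on the log2 scale.

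The summed level of the 56 factors was 13045 ± 166 RPM in control bone and 12638 ± 243 RPM in knockout bone (SD, n = 3 each), or 1.30% and 1.26% of the reads. The genes with Eif symbols summed to 8720 to 8905 RPM in control bone and 8222 to 8324 RPM in knockout bone, without overlap. This sum holds Eif5a itself, with means of 437 RPM in control bone and 211 RPM in knockout bone. It also holds Eif2c5, the eIF2 kinases and the eIF4E inhibitors, so it is not a sum of initiation factors alone. The genes with Eef symbols summed to 4145 to 4328 RPM and 4123 to 4603 RPM, which overlap. Much of that sum is the Eef2 amplicon, with means of 2508 RPM in control bone and 2810 RPM in knockout bone. It also holds Eef2k and Eef2kmt, which act on eEF2, and Eef1akmt1 and Eef1e1, so it is not a sum of elongation factors alone. Eif5a made up 3.35 ± 0.215% of the factor sum in control bone and 1.67 ± 0.0443% in knockout bone. Within groups the factors were as reproducible as other genes: the median SD was 0.104 on the log2 scale over the 52 members averaging at least 10 RPM and 0.121 over the 9018 genes at that level.

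**Figure D2:**
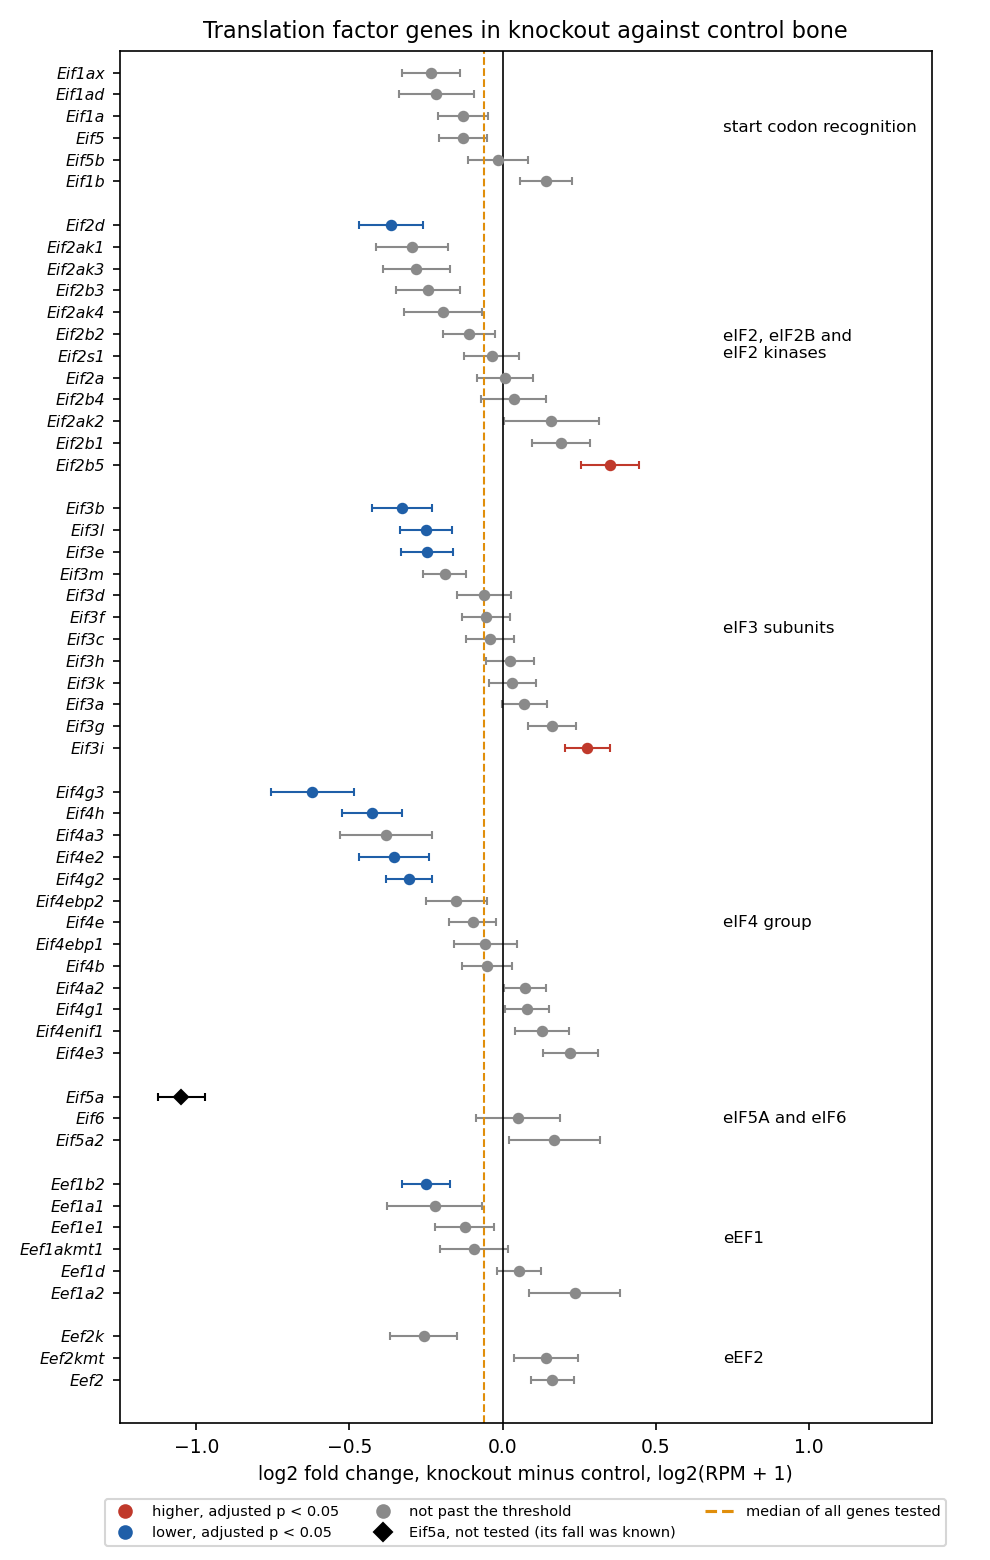
Log2 fold change, knockout minus control, of the 55 tested factor genes, grouped by role, with bars of 1 SE (limma on 3 and 3 libraries). The dashed line is the median of all genes tested, -0.06. Eif5a at -1.05 stands apart from the other factors, which lie between -0.62 and 0.35.

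The calls moved with the scaling of the libraries. With TMM factors, which shift the median of all genes from -0.06 to -0.01, 3 factors were higher and 6 lower, beside 7.66% and 7.52% of all genes. Count tests on the recovered reads gave 4 higher and 5 lower factors with edgeR (8.19% and 7.18% of all genes) and 4 and 4 with DESeq2 (7.92% and 6.15%). Median-of-ratios factors gave 4 and 5 (8.27% and 6.97%) and quantile normalization 3 and 7 (7.62% and 6.83%). Single libraries mattered as well. Without control replicate 1 there was 1 factor higher and 4 lower, beside 3.74% and 5.83% of all genes. Without control replicate 2 there were 1 and 6 (3.44% and 5.67%), and without knockout replicate 2 there were 1 and 5 (3.63% and 6.66%). Eif5a is counted among the lower ones here. Of the other 11 factors past the threshold, Eif4g3, Eif4h and Eif3i passed in all 16 alternatives and Eif4g2 in 15. Eif2b5 passed in 13, Eif2d in 11, and the remaining 5 in 5 to 7. Leaving out control replicate 1 ended 7 of the 11 calls (Eef1b2, Eif2b5, Eif2d, Eif3b, Eif3l, Eif4e2 and Eif4g2). Control replicate 2 ended 6 (Eef1b2, Eif2b5, Eif2d, Eif3b, Eif3e and Eif3l), as did knockout replicate 2 (Eef1b2, Eif2b5, Eif2d, Eif3b, Eif3e and Eif4e2). The calls of Eef1b2, Eif3e and Eif3l also ended without knockout replicate 1 or 3, that of Eif3b without knockout replicate 1, that of Eif4e2 without knockout replicate 3 and that of Eif3e without control replicate 3.

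**Figure D3:**
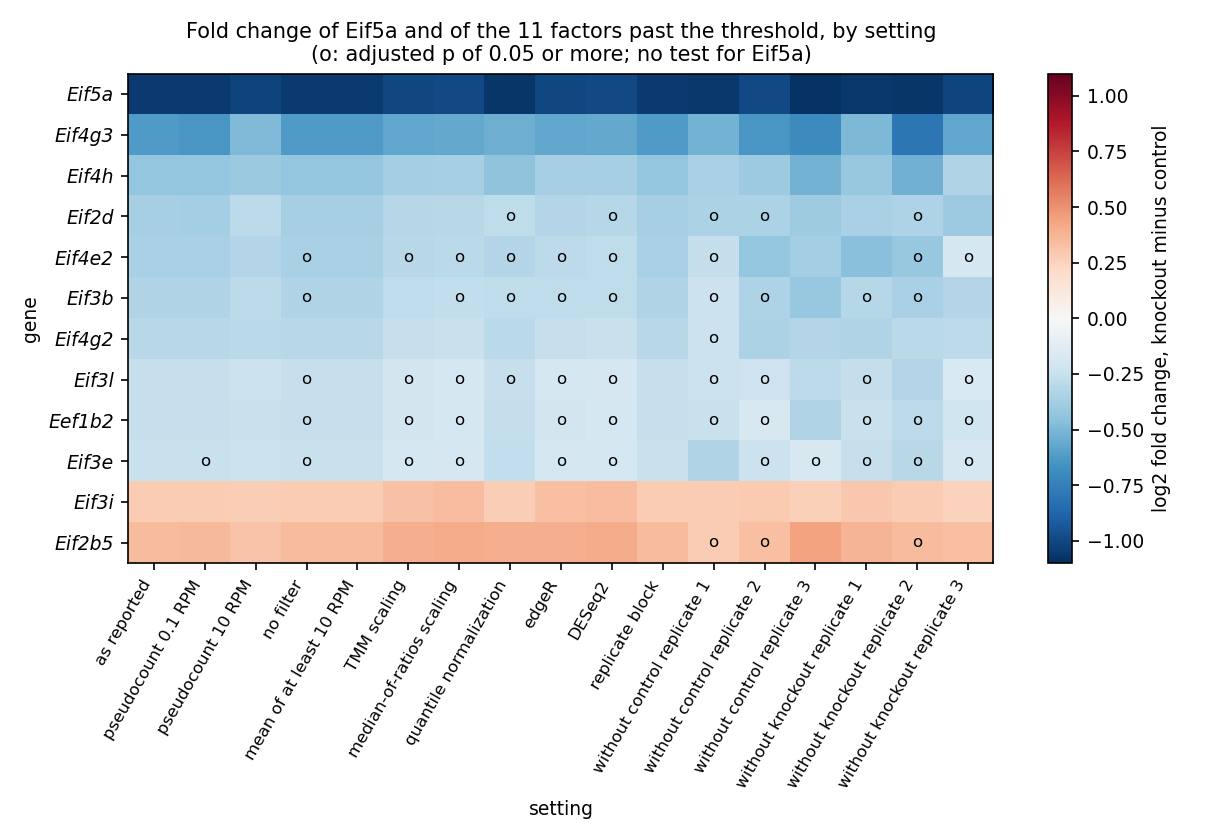
Log2 fold change (colour) of Eif5a and of the 11 other factors past the threshold, by row, as reported and in 16 alternative analyses, by column. A circle marks an adjusted p of at least 0.05 and Eif5a was not tested. Eif4g3, Eif4h and Eif3i carry no circle, and no factor shown changes sign.

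The genes classed here under start codon recognition came first in the order of roles. They were Eif1a, Eif1ad, Eif1ax, Eif1b, Eif5 and Eif5b, and the role of each in finding the start codon was not examined. None of the 6 tested passed as reported (limma). Unadjusted, 1 of them had p under 0.05, and edgeR and DESeq2 called none. Eif1a, which helps the small subunit scan the mRNA, had a log2 fold change of -0.13 ± 0.08 (SE), and its X-linked paralog Eif1ax one of -0.23 ± 0.10. Eif1ax was at 89.8, 87.8 and 95.4 RPM in control bone and 66.9, 80.5 and 85.3 RPM in knockout bone, which do not overlap. Of the 16 alternatives, Eif1ax passed in 1, without knockout replicate 3. Eif5, the GTPase activator of eIF2, was at 249 ± 7.78 and 228 ± 19.1 RPM (SD, n = 3 each), with overlapping groups. The coding sequence of Eif1a matches 19 other annotated genes at 90% identity or more over at least 50% of its length, and which of them its amplicon also reads was not tested.

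In the eIF2 group, 1 of 12 tested genes rose and 1 fell, beside 5.71% of all genes called higher and 11% called lower. Eif2b5, the catalytic subunit of the exchange factor that recharges eIF2 with GTP, was at 59.9, 64.7 and 75.5 RPM in control bone and 81.9, 85.6 and 87.2 RPM in knockout bone. Every knockout library was above every control, with a log2 fold change of 0.35 ± 0.09 (SE). The other 4 eIF2B subunits did not pass and lay on both sides of 0, from -0.24 for Eif2b3 to 0.19 for Eif2b1. Eif2d, a factor that can place tRNA on the ribosome without eIF2, was at 36.3, 36.1 and 34.1 RPM in control bone and 26.9, 26.5 and 28.6 RPM in knockout bone. Its groups lay apart, and it fell by 0.36 ± 0.10 (SE) on the log2 scale. Eif2s1, the alpha subunit whose phosphorylation slows initiation, was at 96.9 ± 7.65 and 94.5 ± 6.71 RPM (SD, n = 3 each), and the sign of its small difference changed with the scaling. Eif2b2, an eIF2B regulatory subunit and the gene with the highest amplicon level in the group, had a log2 fold change of -0.11.

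None of the 4 kinases that phosphorylate eIF2 passed the test as reported (limma), while 2 had an unadjusted p under 0.05 and neither edgeR nor DESeq2 called any. Eif2ak1, the heme-regulated kinase, was at 24.8, 28.4 and 32.1 RPM in control bone and 23.8, 23.7 and 21.3 RPM in knockout bone, a log2 fold change of -0.30 ± 0.12 (SE) without overlap. Eif2ak3, the kinase of the endoplasmic reticulum, and Eif2ak4, the amino acid sensor, were at -0.28 and -0.19, and their groups overlapped. In 2 of the 16 alternatives Eif2ak3 passed, with the replicate block and without control replicate 2. Eif2ak2, the double-stranded RNA kinase PKR and a known interferon-inducible gene, was at 6.10, 7.55 and 7.56 RPM in control bone and 8.21, 7.45 and 8.28 RPM in knockout bone, with overlap. Beside it, 8 of 17 tested interferon genes rose and 1 fell, with 3 higher where only genes of at least 10 RPM were tested. As reported, 5.71% of all genes were called higher and 11% lower. The summed level of the interferon genes was 119 to 121 RPM in control bone and 193 to 196 RPM in knockout bone.

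Of the 12 eIF3 subunits tested, Eif3i rose, Eif3b, Eif3e and Eif3l fell, and 8 did not pass. The shares of all genes called were 5.71% higher and 11% lower. With edgeR and with DESeq2 only Eif3i passed. Eif3i, a small subunit of beta-propeller shape, was at 248, 253 and 242 RPM in control bone and 291, 299 and 309 RPM in knockout bone, with no overlap and a log2 fold change of 0.28 ± 0.07 (SE). Eif3b, the scaffold subunit that binds Eif3i directly, was at 89.8, 77.3 and 69.7 RPM in control bone and 61.0, 64.5 and 61.5 RPM in knockout bone. Its groups lay apart, with a log2 fold change of -0.33 ± 0.10. Eif3b passed in 7 of the 16 alternatives. The ratio of the Eif3i to the Eif3b amplicon was 3.16 ± 0.365 in control bone and 4.81 ± 0.199 in knockout bone (SD, n = 3 each). This pair was singled out after the values were seen. Because both genes lay apart in opposite directions, their ratio had to lie apart too, and nothing further is read from it. Eif3g, the third subunit of that module, was at 0.16 ± 0.08 and did not pass.

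Eif3l was at 207, 207 and 191 RPM in control bone and 171, 187 and 151 RPM in knockout bone, without overlap. Eif3e was at 268, 306 and 329.6 RPM in control bone and 255, 273 and 232 RPM in knockout bone, where knockout replicate 2 lay above control replicate 1. Both had a log2 fold change of -0.25. Eif3m, the subunit with the highest amplicon level in the group, held 542 ± 16.7 and 475 ± 14.4 RPM (SD, n = 3 each) without overlap. At -0.19 ± 0.07 it did not pass as reported, and it passed in 1 alternative, quantile normalization. Eif3k, the next by level, was at 366 ± 19.9 and 374 ± 27.9 RPM. The summed eIF3 level was 3314 ± 46.4 RPM in control bone and 3242 ± 54.7 RPM in knockout bone, with overlapping ranges.

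In the eIF4 group, 4 of 13 tested genes fell and none rose, beside 11% of all genes called lower and 5.71% called higher. Differences between its members were not tested. Eif4g1, the main scaffold that joins the cap to the ribosome, was at 620.1, 654 and 707 RPM in control bone and 705, 673 and 712 RPM in knockout bone. Its groups overlapped and it did not pass, with a log2 fold change of 0.08 ± 0.07 (SE). Eif4g3, its paralog, was at 46.4, 39.0 and 35.8 RPM in control bone and 21.4, 33.2 and 24.02 RPM in knockout bone. The highest knockout library lay just below the lowest control, and at -0.62 ± 0.13 this was the greatest difference after Eif5a.

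Eif4g2 (also called DAP5) lacks the site that binds the cap protein eIF4E and serves cap-independent initiation. It is known for starting at a GUG codon in place of AUG, and the first 30 coding bases of the annotated transcript carry it as GTG, shown in capitals.
Eif4g2: GTGgagagtgcgattgcagaagggggtgct
Its amplicon was at 716, 611 and 633 RPM in control bone and 548, 522 and 513 RPM in knockout bone. The groups lay apart, with a log2 fold change of -0.30 ± 0.07 (SE), and it did not pass without control replicate 1.

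Eif4h, a helper of the eIF4A helicase, was at 263, 246 and 209 RPM in control bone and 175, 203 and 155 RPM in knockout bone. Every knockout library was below every control, and Eif4h fell by 0.43 ± 0.10 (SE) on the log2 scale. The helicase gene Eif4a2, which has the highest amplicon level of the group, was at 1015 ± 26.5 and 1069 ± 59.0 RPM (SD, n = 3 each) and did not pass. Eif4a3, the helicase of the exon junction complex, was at 78.2, 62.6 and 48.6 RPM in control bone and 57.5, 51.9 and 35.5 RPM in knockout bone. Its groups overlapped, and at -0.38 ± 0.15 it did not pass as reported. It passed in 3 alternatives, with the replicate block and without control replicate 3 or knockout replicate 1.

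Among the cap-binding proteins, Eif4e2, which binds the cap without starting translation, fell. It was at 118, 94.0 and 100.5 RPM in control bone and 93.4, 88.1 and 64.4 RPM in knockout bone, with a log2 fold change of -0.35 ± 0.11 (SE). The groups were separated by less than 1 RPM, and it passed in 7 of the 16 alternatives. Eif4e itself was among the 12 members with log2 fold changes between -0.10 and 0.07, none of which passed. Eif4e3 was at 65.1, 70.1 and 62.0 RPM in control bone and 76.2, 73.9 and 80.03 RPM in knockout bone, which do not overlap. At 0.22 ± 0.09 it did not pass with limma as reported, but edgeR and DESeq2 called it higher. The eIF4E inhibitors Eif4ebp1 and Eif4ebp2 did not pass, and Eif4ebp2 was at -0.15 ± 0.10.

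Of the 6 genes with Eef1 symbols tested (Eef1a1, Eef1a2, Eef1akmt1, Eef1b2, Eef1d and Eef1e1), Eef1b2 fell, beside 11% of all genes called lower. This subunit of the exchange factor for eEF1A was at 1145, 1259 and 1007 RPM in control bone and 946, 1002 and 910.4 RPM in knockout bone. Control replicate 3 was only slightly above knockout replicate 2, and the log2 fold change was -0.25 ± 0.08 (SE), which passed in 6 of 16 alternatives. Eef1d, another subunit of that complex, was at 417 ± 9.51 and 434 ± 23.7 RPM (SD, n = 3 each) and did not pass.

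The tRNA-carrying factor itself is encoded by Eef1a1 in most cells and by Eef1a2 in muscle and nerve. The Eef1a1 amplicon gave 8.42, 9.05 and 8.79 RPM in control bone and 7.45, 6.14 and 8.69 RPM in knockout bone, with overlap. Although Eef1a1 is among the most abundant mRNAs of most cells, the amplicon read at about the level of Eef1a2. Its coding sequence has 13 annotated pseudogenes at 90% identity or more, and their part in this reading was not tested. Eef1a2 was at 8.25, 7.78 and 8.38 RPM in control bone and 11.3, 8.44 and 9.71 RPM in knockout bone. The groups were barely separate and at 0.23 ± 0.15 (SE) it did not pass. Of 12 skeletal muscle markers 3 fell and none rose, beside 11% of all genes called lower and 5.71% called higher. The part of muscle RNA in the Eef1a2 value was not tested.

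None of the 3 eEF2 genes passed with limma, while 2 had an unadjusted p under 0.05, and edgeR and DESeq2 each called 1, Eef2, higher. Eef2, the translocase and the factor with the highest amplicon level, was at 2542, 2452 and 2530.4 RPM in control bone and 3026, 2788 and 2618 RPM in knockout bone. All knockout libraries were above all controls, with a log2 fold change of 0.16 ± 0.07 (SE). Eef2k, the kinase that switches eEF2 off, was at -0.26 ± 0.11 with overlapping groups, and passed in 1 alternative, without control replicate 3. Eef2kmt, which methylates eEF2, was at 30.8 ± 1.07 and 34.1 ± 1.45 RPM (SD, n = 3 each).

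Genes that act on these factors were counted from lists in the same fit. The counts of this and the next 2 paragraphs stand beside 5.71% of all genes called higher and 11% called lower. Of 10 tested genes of hypusination and polyamine supply, none passed (limma). Unadjusted, 1 had p under 0.05, and edgeR and DESeq2 each called 1, the spermine oxidase gene Smox, which was picked after the values were seen. Dhps and Dohh, the enzymes that make hypusine on eIF5A, had log2 fold changes of 0.19 ± 0.13 (limma, adjusted p = 0.336) and 0.17 ± 0.09 (adjusted p = 0.226). Odc1, which makes the polyamine precursor, was at -0.12 ± 0.08 (adjusted p = 0.342). The list's median was 0.09, on the other side of 0 from Eif5a.

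Of 18 tested genes of mTORC1 and cap-binding control, 1 rose and 1 fell, with a median of -0.21. Unadjusted, 10 had p under 0.05 (limma), beside 4020 of all 12846 genes, and edgeR called 2 and DESeq2 3. Groups did not overlap for 2 higher and 8 lower genes, beside 11.9% and 21.9% of all genes. In the alternatives that kept all libraries, 1 to 3 rose and 0 to 3 fell. Ddit4, an inhibitor of mTORC1 induced by stress, rose by 0.68 ± 0.11 (limma, adjusted p = 2.03e-04). Rps6kb1, the S6 kinase, fell by 0.26 ± 0.09 (adjusted p = 0.0446) but passed in 6 of 16 alternatives, not with TMM, edgeR or DESeq2, nor without control replicate 1 or 2 or knockout replicate 1 or 3. Of 18 genes of the integrated stress response, the program downstream of eIF2 phosphorylation, none rose and 3 fell, with a median of -0.22. These were Nupr1 at -0.68 (adjusted p = 4.57e-04), Asns at -0.53 (adjusted p = 0.00475) and Psat1 at -0.26 (adjusted p = 0.0400), the last passing in 6 of 16 alternatives, not with TMM, edgeR or DESeq2, nor without control replicate 1 or 2 or knockout replicate 2 or 3. Atf4, its central transcription factor, was at 0.04 (adjusted p = 0.741).

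Of 9 poly(A) binding and scanning helpers, 3 rose and none fell. Paip1, a partner of the poly(A) binding protein, rose by 0.44 ± 0.07 (limma, adjusted p = 2.53e-04), Abcf1, which works with eIF2, by 0.52 ± 0.09 (adjusted p = 3.25e-04), and the helicase gene Dhx9 by 0.26 ± 0.09 (adjusted p = 0.0486), passing in 9 of 16 alternatives. Of 9 termination and recycling genes, 1 rose, Gspt2 at 0.63 (adjusted p = 0.0177), and 1 fell, the ribosome recycling gene Abce1 at -0.34 (adjusted p = 0.0165). Of 12 elongation factor modifiers, 2 of them also members here, 1 passed, Mettl10 at 0.36 (adjusted p = 0.0244). The calls of Dhx9, Gspt2, Abce1 and Mettl10 were lost without control replicate 1 or control replicate 2. Those of Dhx9, Gspt2 and Mettl10 were also lost without knockout replicate 2, Dhx9 without control replicate 3, Gspt2 without knockout replicate 1 and Abce1 without knockout replicate 3. Of 22 cytosolic aminoacyl-tRNA synthetase genes, 4 rose and 1 fell, but only 2 rose without control replicate 1, control replicate 2 or knockout replicate 2. Tars fell by 0.69 ± 0.13 (adjusted p = 9.22e-04), whereas Hars rose by 0.41 ± 0.09 (adjusted p = 0.00320) and Aars by 0.33 ± 0.08 (adjusted p = 0.00784).

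Eif5a and Stat3 are both on chromosome 11, and the genes around Eif5a were counted. Stat3 lies from 100885098 to 100939540 and Eif5a from 69916714 to 69921958, so the 1 Mb window does not reach Stat3. Linkage to the Stat3 allele was not tested. Within 1 Mb of Eif5a, 67 other genes were tested, of which 4 rose (5.97%) and 3 fell (4.48%). Their median log2 fold change was -0.10, beside -0.07 over the 1015 tested genes of the chromosome, where 6.8% were called higher and 12.3% lower. The nearest, Gps2, a subunit of a corepressor complex, ends 0.123 kb from Eif5a and lies on the opposite strand. It was at 35.8 ± 2.87 RPM in control bone and 26.2 ± 1.57 RPM in knockout bone (SD, n = 3 each), and fell by 0.44 ± 0.11 (SE; limma, adjusted p = 0.00835) on the log2 scale, a call lost without control replicate 1. The sources used here do not say whether reads were assigned by strand.

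Vamp2, a vesicle fusion gene 824 kb away, had the largest fall of the region, from 61.4 ± 3.02 to 0.413 ± 0.168 RPM (SD, n = 3 each; log2 fold change -5.47, limma adjusted p = 8.07e-18). Cd68, a macrophage marker, rose by 0.48 ± 0.09 (adjusted p = 5.85e-04). Arhgef15, a gene of endothelial cells, fell by 0.44 ± 0.14 (adjusted p = 0.0389), which passed in 6 of 16 alternatives, not with TMM, edgeR or DESeq2, nor without control replicate 2 or 3 or knockout replicate 2 or 3.

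**Figure D4:**
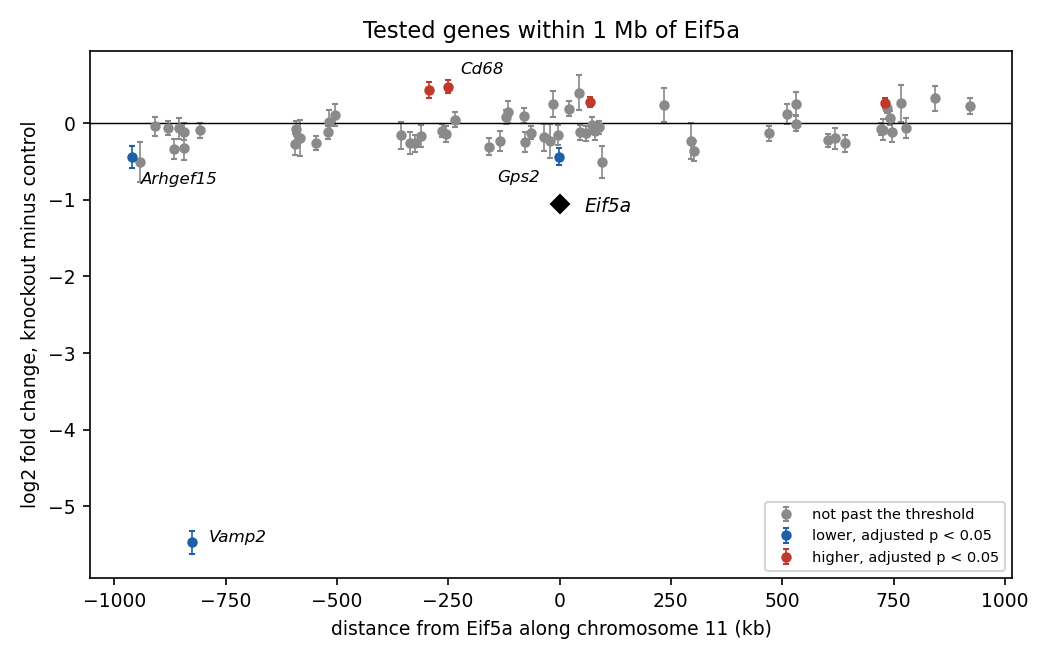
Log2 fold change, knockout minus control (vertical axis), of the tested genes within 1 Mb of Eif5a against their distance from it in kb along chromosome 11, with bars of 1 SE. Most lie near 0, Eif5a is at -1.05 and Vamp2 at -5.47.

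The start region of the factor genes was searched for TTCNNNGAA, the palindromic motif that STAT proteins bind, in RefSeq windows from 250 bases before to 50 after each start (GRCm38.p6). A window was found for 45 of the 56 members. A gene was counted if any of its windows held the motif. Of the members, 7 did (15.6%), beside 8.13% of the 9731 tested genes with a window and 9.55% of all 27025 genes with one. Counted by window and not by gene, the share was 8.3% of all 32851. The 7 members were Eef1e1, Eef2k, Eif2ak2, Eif2ak3, Eif3c, Eif3g and Eif4e, none of which passed the test as reported. No match was found in a set of 9 members with a window, made up of Eif5a, which was not tested, and others past the threshold. The 250 bases before an annotated Eif5a start, at chr11:69921387-69921636 (minus strand), are shown because this gene has the greatest difference. Eif5a has 6 start windows in RefSeq, and this is the stretch before 1 of them. It lies inside the gene's annotated span, which also holds transcripts that start further upstream.
Eif5a upstream: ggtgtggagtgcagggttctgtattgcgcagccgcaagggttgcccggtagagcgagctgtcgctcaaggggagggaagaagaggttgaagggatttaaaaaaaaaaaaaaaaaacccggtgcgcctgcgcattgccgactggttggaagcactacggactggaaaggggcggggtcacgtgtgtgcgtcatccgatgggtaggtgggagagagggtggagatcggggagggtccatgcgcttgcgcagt
Of this stretch, 58.0% of the bases were G or C.

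Cell type markers moved between the groups together with these results. Of 8 tested osteoblast markers 6 fell and of 8 chondrocyte markers 5 fell (limma). Of all genes tested, 11% were called lower and 5.71% higher. For the osteoblast and chondrocyte markers edgeR called 6 and 3, and DESeq2 5 and 3. The summed chondrocyte markers were at 468 to 488 RPM in control bone and 366 to 401 RPM in knockout bone. Of 6 macrophage markers, 4 rose and 1 fell, with sums of 355 to 370 and 460 to 493 RPM. Of 6 proliferation markers 2 fell, and their sums were 994 to 1069 and 946 to 963 RPM. Of 5 endothelium markers 2 fell, and of 3 tested erythroid markers 1 rose, with Epb42 and Klf1 under 1 RPM. Among proliferation markers edgeR and DESeq2 each called 1, and among endothelium markers they called 3 and 2. Marker calls were not followed with libraries left out. The part of these marker shifts in the level of Eif5a or any other factor was not tested.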

How the data were processed

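The authors deposited RPM values (reads per 1000000 reads of the library) for 23930 amplicons of the Ion AmpliSeq mouse transcriptome panel, which reads 1 short target per gene, per the labels' protocols. Trizol RNA was copied with SuperScript VILO. The sources used here do not name the aligner, counter or genome build. All values were whole multiples of 1 read within 0.1 read, so read counts could be recovered for the 6 libraries (9126493 to 13376550 reads). Without molecular identifiers, reads are not independent molecules. A total of 27 symbols stored as dates were read back from the amplicon names.

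Amplicons averaging at least 1 RPM (12846) were compared with limma 3.58.1 (R 4.3.3) on log2(RPM + 1), with an empirical Bayes trend, two-sided, Benjamini-Hochberg threshold 0.05 over all of them. This scale understates changes of low genes. The script was tested on simulated data. The alternatives were pseudocounts of 0.1 and 10 RPM, no filter, a mean of at least 10 RPM, TMM, median-of-ratios and quantile scaling, edgeR 4.0.16 and DESeq2 1.42.0 on the recovered reads, the replicate number as a block, and leaving out each library.

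The labels do not say whether replicates were separate embryos, so p-values cover only the spread of these samples, perhaps technical. Pairs within a group differed beyond counting noise (chi-square per degree of freedom 4.54 to 7.80). Members and lists were chosen with earlier results of these data known. Named were Eif5a, Eif5a2, all members past the threshold, per role the 2 with the highest mean and the 1 with the greatest fold change, up to 3 genes of a list and 4 neighbours past the threshold, and Stat3. Others named are singled out after their values were seen. Positions and coding sequences are from GENCODE M21 and start windows from RefSeq, matched by symbol; 21334 amplicons had a position. Copies were searched with BLAST among annotated transcripts.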

Additional observations from a re-analysis of the deposited data

How the results depend on the processing

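Eif5a kept its direction in all 16 alternatives, from -1.09 to -0.99, and relative to the other factors it was at -0.99 as reported and at -1.01 to -0.91 with 1 library left out. As reported, 733 genes were higher and 1409 lower; leaving out 1 library gave 442 to 705 higher and 729 to 1324 lower. Lower genes numbered 922 with edgeR, 775 with DESeq2, 895 with median-of-ratios factors, 877 with quantile normalization and 869 with no filter. Among the factors, 2 were higher as reported and 4 with DESeq2, edgeR and median-of-ratios factors, and 1 to 2 with 1 library left out. With Eif5a counted among them, lower factors numbered 10 as reported, 4 with DESeq2, and 5 with edgeR, median-of-ratios factors and no filter. They numbered 6 with TMM, and 4 to 11 with 1 library left out. The factor median was -0.06 as reported, -0.0036 with DESeq2, -0.0099 with TMM, -0.0097 with edgeR, 0.00066 with median-of-ratios factors, -0.077 with no filter as with the filter at 10 RPM, and -0.096 to -0.062 with 1 library left out. With the replicate block, 12 factors (Eif5a counted) and 7 genes around Eif5a were lower, against 10 and 3 without it, and 2 to 6 of the latter with 1 library left out. Same-numbered libraries deviated with correlations of 0.024, -0.031 and 0.167, and differently numbered ones with -0.163 to 0.174. With group means of 3 libraries, these values cannot settle whether the numbers pair the samples. In all, 14 factors that did not pass changed sign in at least 1 alternative. For the 10 given by range only (Eef1akmt1, Eif2a, Eif2b4, Eif3c, Eif3d, Eif3f, Eif3h, Eif4b, Eif4ebp1 and Eif5b), values lay between -0.18 and 0.16. The other 4 were Eif2s1 (-0.089 to 0.023 with 1 library left out; 0.027 with DESeq2, 0.013 with TMM, 0.020 with edgeR and 0.024 with median-of-ratios factors) and, with 1 library left out, Eif3k (-0.029 to 0.076), Eif5a2 (-0.0048 to 0.26) and Eif6 (-0.11 to 0.28). The libraries were control 1 and knockout 1 for Eif2s1, knockout 3 for Eif3k and Eif5a2, and knockout 1 and 2 for Eif6. The causes of these changes were not tested. Fits with fewer libraries or with more genes tested were only compared with the reported one, and the part of those numbers was not separated. The lowest count of a tested factor was 56 reads (Eef1a1), and the effect of depth on the calls was not tested. Eif2c5, at 0 to 5 reads, was too low to compare.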
